A study of Homo sapiens with 10 samples.

Results

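The 75 genes described here encode proteins of the spliceosome and splicing factors. They were chosen by symbol, as every gene of the count table whose symbol starts with SRSF, SF3A, SF3B, SNRP, HNRNP, PRPF or U2AF, or is one of LSM2 to LSM8, and they are 75 of 13920 listed genes. All 75 are protein coding. By symbol family there were 21 HNRNP, 12 SRSF, 12 PRPF, 11 SNRP, 7 LSM, 6 SF3B, 3 SF3A and 3 U2AF genes. Of the 81 protein-coding genes with such a symbol in the RefSeq gene table, 6 were not among the listed genes (HNRNPCL1, HNRNPCL2, HNRNPCL3, HNRNPCL4, SNRPN and HNRNPA1L3).

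RNA was sequenced from spheroids of T47D, a breast cancer cell line, in 10 libraries. Wild-type cells (WT) and the SAMHD1 knock-out (KO) clone A1 were each sequenced in experiments 10, 11, 15 and 16, and KO clone A2 in experiments 15 and 16. Each KO line comes from 1 clone, so a difference between a line and WT cannot be told apart from a difference between clones of T47D, and no treatment was given. The values are read counts scaled to library size as CPM, the usual count per megaread, by the trimmed mean of M values (TMM), and totals ranged from 40077369 to 51311482 counts per library.

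The labelled cell line and the targeted gene were checked first. Of the luminal epithelial markers, KRT19 was not listed, EPCAM lay between 0.348 and 1.78 CPM, CDH1 between 0.684 and 2.16 CPM and ESR1 between 0.183 and 1.59 CPM. In the same libraries VIM lay between 1175 and 1518 CPM and CDH2 between 118 and 158 CPM. Other luminal markers were higher, with KRT8 between 3.10 and 9.07 CPM, PGR between 15.4 and 20.7 CPM, GATA3 between 15.4 and 24.8 CPM, FOXA1 between 14.1 and 26.75 CPM, KRT18 between 36.3 and 60.3 CPM and XBP1 between 40.7 and 65.3 CPM. Of the basal or mesenchymal markers COL1A1 lay between 5.91 and 11.4 CPM and COL3A1 between 1.66 and 17.85 CPM, and KRT5, KRT14, COL1A2 and PDGFRB were not listed. The markers were thus mixed in WT and KO libraries, with EPCAM, CDH1 and ESR1 near 0 and VIM and CDH2 high, and T47D is used here as the labelled name. Of 3 endothelial markers 1 was listed, at 0.799 to 1.69 CPM. Across WT libraries of experiments 10, 11, 15 and 16 SAMHD1 measured 53.9, 55.7, 49.8 and 56.4 CPM. In A1 it was at 22.5, 23.0, 6.44 and 6.15 CPM in the same order, and in A2 at 23.6 and 20.2 CPM in experiments 15 and 16. Every KO library was below every WT library, but A1 held less SAMHD1 RNA in experiments 15 and 16 than in 10 and 11. Libraries of the experiment pairs 10 and 11 against 15 and 16 stood apart from each other in both WT and A1, so clones were compared with WT within a pair. Mitochondrial genes held 13.9% of the counts in A1 of experiment 15 and 7.79% to 10.7% in the other 9 libraries.

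Introns are removed from pre-mRNA by the spliceosome, which is built from small nuclear ribonucleoproteins (snRNPs) and many associated proteins. Among the SNRP genes, those for the Sm proteins (B, D, E, F and G) encode a ring on the U1, U2, U4 and U5 RNAs, whereas SNRPA and SNRPC encode proteins of the U1 snRNP and SNRPA1 and SNRPB2 proteins of the U2 snRNP. LSM2 to LSM8 form a ring on the U6 RNA. The SF3A and SF3B proteins belong to the U2 snRNP, which binds the branch point, and U2AF proteins recognise the end of the intron. PRPF proteins act at several steps, from U1 snRNP-linked proteins to those of the tri-snRNP and the catalytic core, whereas SRSF proteins (SR proteins) and HNRNP proteins bind pre-mRNA and shift the choice of splice sites.

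The bases just upstream of the transcription start are given for 6 genes that carry the differences described below. They are SNRPD3, which was lower in A2, HNRNPUL1, PRPF31 and SF3A2, which were lower in both clones, HNRNPUL2, which was higher in A2, and LSM3, which was higher in WT of experiments 15 and 16. Each run holds the 120 bases before the annotated start in RefSeq on GRCh38.p14, read 5′ to 3′ on the strand of the gene. Capitals mark matches, on either strand, to 5 motifs, which were the ETS motif CCGGAAG, the Sp motif GGGCGG, the CCAAT box, the TATA box written as TATAAA and the E-box written as CACGTG. SNRPD3 and LSM3 hold no match in these bases, and the CCAAT match of HNRNPUL2 lies on the opposite strand. The regions are chr22:24555530-24555649 (SNRPD3, plus strand), chr19:41262437-41262556 (HNRNPUL1, plus), chr19:54115634-54115753 (PRPF31, plus), chr19:2236704-2236823 (SF3A2, plus), chr11:62727458-62727577 (HNRNPUL2, minus) and chr3:14178697-14178816 (LSM3, plus).
SNRPD3: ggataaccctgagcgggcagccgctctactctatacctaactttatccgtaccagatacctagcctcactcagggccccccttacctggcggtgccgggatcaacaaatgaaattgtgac
HNRNPUL1: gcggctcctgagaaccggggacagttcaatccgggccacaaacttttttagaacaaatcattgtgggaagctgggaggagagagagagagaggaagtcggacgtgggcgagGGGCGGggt
PRPF31: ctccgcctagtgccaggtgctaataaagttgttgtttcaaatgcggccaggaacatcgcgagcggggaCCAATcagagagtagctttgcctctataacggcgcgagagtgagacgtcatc
SF3A2: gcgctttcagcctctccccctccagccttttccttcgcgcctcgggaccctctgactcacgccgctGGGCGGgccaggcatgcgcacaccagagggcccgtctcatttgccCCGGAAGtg
HNRNPUL2: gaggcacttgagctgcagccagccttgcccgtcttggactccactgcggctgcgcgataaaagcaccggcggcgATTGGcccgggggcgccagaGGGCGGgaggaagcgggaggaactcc
LSM3: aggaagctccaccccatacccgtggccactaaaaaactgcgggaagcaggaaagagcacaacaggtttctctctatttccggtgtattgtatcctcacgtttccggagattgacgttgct
In the 250 bases before the start, CCGGAAG was present in 23 of the 67 splicing genes with a promoter entry (34.3%) and in 15.1% of the 11365 listed genes with one. It was found in all 3 SF3A genes and in 7 of 10 SNRP genes, but in 3 of 20 HNRNP and 2 of 11 SRSF genes. CCAAT was present in 43.3% of the splicing genes against 3983 of the 11365 genes, GGGCGG in 61.2% against 66.9%, TATAAA in 7.46% against 5.66% and CACGTG in 10.4% against 8.94%. These shares describe the letters in these windows, and binding was not measured.

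Levels in WT spheroids spanned a wide range when set per kilobase of the canonical GENCODE transcript. HNRNPA1, an RNA-binding protein that shapes alternative splicing, was the highest of the 75 genes at 619 ± 23.3 CPM per kb (SD, n = 4). SNRPD2, a subunit of the Sm ring, followed at 412 ± 48.0 CPM per kb and HNRNPA2B1 at 411 ± 39.2 CPM per kb (SD, n = 4), and these neighbours did not differ beyond their spread. The lowest were PRPF40B, a U1-associated protein, at 3.93 ± 0.554 CPM per kb and LSM8 at 4.77 ± 0.577 CPM per kb (SD, n = 4). Family medians per kb were highest for HNRNP (144) and SNRP (107), and lowest for LSM (29.3) and PRPF (31.6). Within families the range per kb ran from HNRNPLL (9.67) to HNRNPA1 (619), from SNRPD1 (22.8) to SNRPD2 (412), from SRSF12 (5.69) to SRSF2 (248) and from LSM8 (4.77) to LSM7 (107). It ran from PRPF40B (3.93) to PRPF8 (97.4), from SF3A1 (37.8) to SF3A2 (136), from SF3B3 (29.4) to SF3B5 (194) and from U2AF1L4 (13.5) to U2AF2 (183). Levels per kb rest on 1 transcript model per gene. By mean count the least covered were U2AF1L4 (423), PRPF40B (558) and LSM6 (783), so the 75 genes were measured at a depth where counting error is small.

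**Figure D1:**
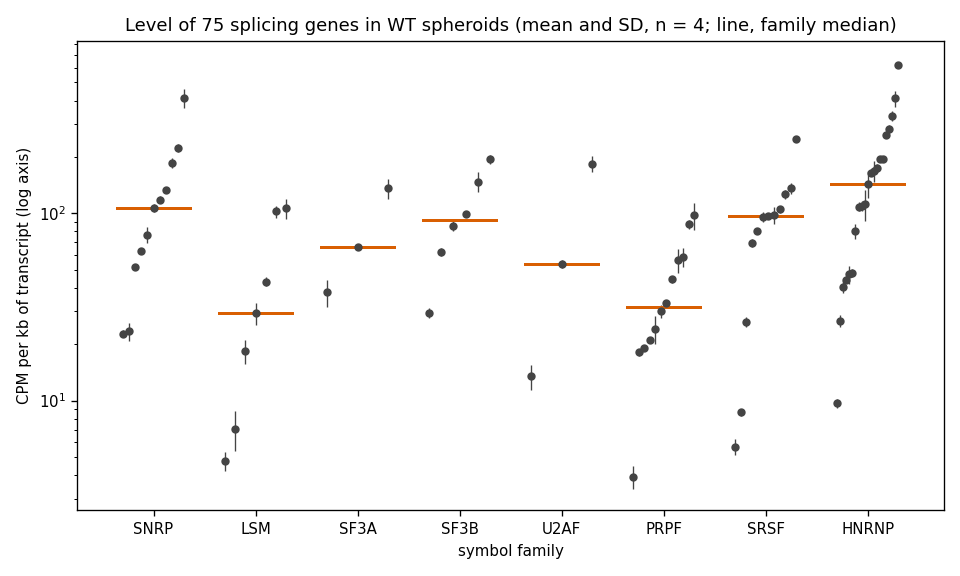
Level of each of the 75 genes in WT spheroids, as TMM-scaled CPM per kb of transcript on a log axis, by symbol family; points are means of 4 WT libraries, bars the SD and orange lines the family medians. HNRNPA1 is highest at 619 and PRPF40B lowest at 3.93 CPM per kb.

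Together the 75 genes held 2.13% to 2.19% of the counts in the 4 WT libraries. In A1 they held 2.22% and 2.17% in experiments 10 and 11, and 1.94% and 2.06% in experiments 15 and 16. A2 held 2.10% and 2.10%. On the TMM scale the summed level was 21501 to 21862 CPM in WT, 22498 and 21801 CPM in A1 of experiments 10 and 11, 19886 and 20352 CPM in A1 of experiments 15 and 16, and 20604 and 20117 CPM in A2. The 4 KO libraries of experiments 15 and 16 were thus below all WT libraries and the A1 libraries of experiments 10 and 11 were not. A sum gives most weight to the highest genes. HNRNPA1 alone was at 2230 and 2287 CPM in WT of experiments 15 and 16, at 1777 and 1965 CPM in A1 and at 1712 and 1699 CPM in A2. In bulk RNA, fewer cells of a type and less RNA per cell cannot be told apart. The lowest sum was in A1 of experiment 15, the library with 13.9% mitochondrial counts, and the part of that share in the result was not tested.

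The difference was also taken within each experiment, gene by gene. The median of A1 minus WT over the 75 genes, in log2 CPM, was 0.06 in experiment 10, -0.00075 in experiment 11, -0.07 in experiment 15 and -0.08 in experiment 16. The number of genes below 0 was 19, 38, 56 and 65 of 75 in that order, where 48.9% to 50.3% of all genes were below 0. For A2 minus WT the median was -0.03 in experiment 15 and -0.09 in experiment 16, with 43 and 54 of 75 genes below 0 against 48.3% and 49.5% of all genes. A1 was below WT in both experiments 15 and 16 for 52 of 75 genes and above in both for 6, whereas 35.5% and 36.4% of all genes did so. In experiments 10 and 11 A1 was below WT in both for 14 genes and above in both for 32, against 30.1% and 29.8% of all genes. A2 was below WT in both experiments 15 and 16 for 40 genes and above in both for 18, against 37.3% and 39.5% of all genes, a smaller imbalance by count than in A1. A1 and A2 share their WT libraries, so their differences are not independent.

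**Figure D2:**
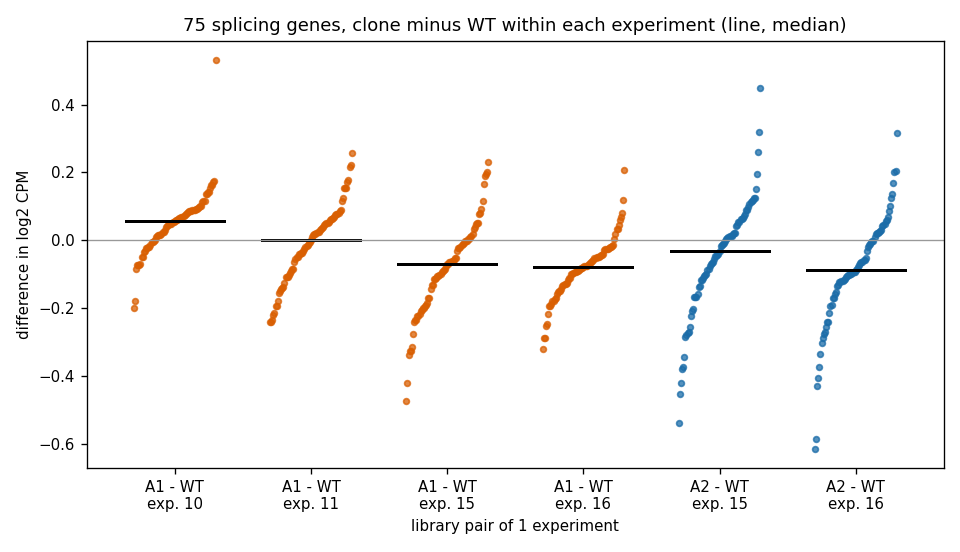
Difference in log2 CPM between a KO library and the WT library of the same experiment; each point is 1 of the 75 genes, ordered by value within its column, and lines mark medians. The medians of A1 minus WT move from 0.06 and -0.00075 in experiments 10 and 11 to -0.07 and -0.08 in experiments 15 and 16, with single genes spread on both sides of 0.

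To ask whether clone A1 differed from WT in the later experiment pair, A1 was tested against WT in experiments 15 and 16 (2 libraries each, edgeR quasi-likelihood test, adjusted over all genes). Of the 75 genes 8 were lower and 0 higher at an adjusted p under 0.05. Before adjustment 19 were under 0.05 (25.3%), near the 26.8% of all genes. The adjusted calls make 10.7% lower, beside 6.74% lower and 6.44% higher among all 13920 genes. The median log2 fold change of the 75 genes was -0.08, against 0.0026 for all genes, and 58 of 75 were below 0. When experiments entered the model as a replicate block, 19 were lower and 2 higher, beside 11.8% and 11.5% of all genes. All changes were small, and the median standard error was 0.062.

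HNRNPUL1, an hnRNP U-like RNA-binding protein, stood at 479 and 494 CPM in WT and at 382 and 404 CPM in A1 of experiments 15 and 16. A2 was at 410.3 and 391 CPM, so every KO library of the pair was below both WT libraries. Its log2 fold change in A1 was -0.31 (SE 0.057, adjusted p = 0.0025). SNRPE, a subunit of the Sm ring, was at 103 and 96.1 CPM in WT and at 87.45 and 76.8 CPM in A1, with a log2 fold change of -0.28 (SE 0.072, adjusted p = 0.019). HNRNPA1 was at 2230 and 2287 CPM in WT and at 1777 and 1965 CPM in A1. The groups did not overlap, and the log2 fold change was -0.27 (SE 0.064, adjusted p = 0.012). SF3A2, a subunit of the U2 snRNP, fell from 211 and 185 CPM to 167 and 164 CPM (log2 fold change -0.26, adjusted p = 0.047). HNRNPM, an hnRNP that acts on alternative exons, and U2AF2, the large subunit that binds the polypyrimidine tract, both had a log2 fold change of -0.24 (adjusted p = 0.019 and 0.016). SNRPD2 and PRPF31, a protein of the U4/U6 snRNP, fell by 0.23 and 0.23 on the log2 scale (adjusted p = 0.039 and 0.038).

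Single libraries decided several of these calls. The SNRPE call was lost without A1 of experiment 16 (-0.19) or WT of experiment 15 (-0.22), and the U2AF2 call without WT of experiment 15 (-0.19). The HNRNPA1 call was lost without A1 of experiment 15 (-0.20) or either WT library (-0.29 and -0.26). Calls of SF3A2 and HNRNPM were lost without A1 of experiment 15 (-0.28 and -0.21) or WT of experiment 15 (-0.17 and -0.20), and that of SF3A2 also without A1 of experiment 16 (-0.25). The HNRNPUL1 call held without each library in turn, and without WT of experiment 15 it was the only one of the 8 that remained.

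By family, all 12 PRPF genes had a log2 fold change below 0 in A1, with a range from -0.23 (PRPF31) to -0.0023 (PRPF38A), and 1 passed the test. Of 21 HNRNP genes 3 were lower and 18 were below 0. Of 11 SNRP genes 2 were lower, with SNRPA1 at the other end at 0.14. In the SF3A and U2AF families 1 of 3 each was lower. LSM, SF3B and SRSF genes were not among the 8. U2AF1L4, a relative of the small U2AF subunit and the least covered of the 75 genes, had the lowest value (-0.38, SE 0.12, adjusted p = 0.051), and it passed with the replicate block (adjusted p = 0.021). So did LSM4 (-0.16, adjusted p = 0.0093), LSM7 (-0.19, adjusted p = 0.016), LSM8 (0.17, adjusted p = 0.026) and SF3B3 (-0.12, adjusted p = 0.042) under the block. SRSF genes ranged from -0.10 (SRSF3) to 0.14 (SRSF12), with 6 of 12 below 0, and LSM genes from -0.19 (LSM7) to 0.18 (LSM8).

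The same comparison for clone A2 in experiments 15 and 16, against the same WT libraries, gave 13 lower and 2 higher genes (17.3% and 2.67% of 75). Among all genes 11.4% were lower and 9.75% higher. The median log2 fold change was -0.05, against 0.0043 for all genes, and 53 of 75 were below 0. With the replicate block 22 were lower and 4 higher, beside 16.9% and 15.5% of all genes. Leaving out A2 of experiment 16 or WT of experiment 15 left 8 genes in all (10.7% of the 75), where calls over all genes fell from 21.2% to 12.7% and 13.2%, and leaving out any other library gave 14 to 18.

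SNRPD3, a subunit of the Sm ring, was at 179 and 172.5 CPM in WT, at 168.5 and 167 CPM in A1 and at 123 and 113 CPM in A2. Both A2 libraries were below every other library of the series, with a log2 fold change of -0.58 (SE 0.061, adjusted p = 9.9e-06) relative to WT. SF3A1, a U2 snRNP subunit encoded on the same chromosome, was at 192 and 191 CPM in WT and at 140.4 and 127 CPM in A2 (log2 fold change -0.52, SE 0.10, adjusted p = 0.0043). In A1 it differed between the libraries, at 144 and 188 CPM, and in WT of experiments 10 and 11 it was at 155 and 232 CPM. The call for SF3A1 was lost with the replicate block (adjusted p = 0.158) and without A2 of experiment 16 (-0.45).

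HNRNPA1 was at 1712 and 1699 CPM in A2, the lowest levels of the 10 libraries (log2 fold change -0.41, SE 0.064, adjusted p = 3.4e-04). PRPF31 fell from 93.8 and 91.5 CPM in WT to 77.7 and 69.0 CPM (-0.34, adjusted p = 0.0023). PRPF39, a protein linked to the U1 snRNP, was at 97.4 and 96.8 CPM in WT, at 98.1 and 94.0 CPM in A1 and at 72.6 and 81.9 CPM in A2. A1 overlapped WT whereas A2 lay below both, with a log2 fold change of -0.33 (SE 0.068, adjusted p = 0.0026). SNRPE was at 81.4 and 77.8 CPM in A2 (-0.33, adjusted p = 0.0043).

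SF3B3, a subunit of the U2 snRNP, was at 263 and 281 CPM in WT, at 244 and 256 CPM in A1 and at 327.5 and 323 CPM in A2. The A2 libraries were above all 8 other libraries, with a log2 fold change against WT of 0.26 (SE 0.057, adjusted p = 0.0047), and the call was lost without WT of experiment 15 (0.21). HNRNPUL2, another hnRNP U-like protein, was at 229 and 222 CPM in WT, at 203 and 211 CPM in A1 and at 274 and 277 CPM in A2. It rose by 0.29 on the log2 scale in A2 (SE 0.055, adjusted p = 0.0016). The remaining lower genes were SF3A2, HNRNPUL1, SNRPA, SNRPB2, HNRNPU, HNRNPDL and SRSF3, with log2 fold changes from -0.33 (SF3A2) to -0.18 (SRSF3). By family, 4 of 11 SNRP, 4 of 21 HNRNP, 2 of 12 PRPF, 2 of 3 SF3A and 1 of 12 SRSF genes were lower, and 1 HNRNP and 1 of 6 SF3B genes were higher. LSM and U2AF genes were not among them, with U2AF1L4 at -0.33 (adjusted p = 0.066) and LSM7 at -0.27 (adjusted p = 0.054). With the replicate block LSM7 (adjusted p = 6.5e-04), LSM2 (-0.19, adjusted p = 0.024), U2AF1L4 (adjusted p = 0.033) and U2AF2 (-0.12, adjusted p = 0.036) passed as well.

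**Figure D3:**
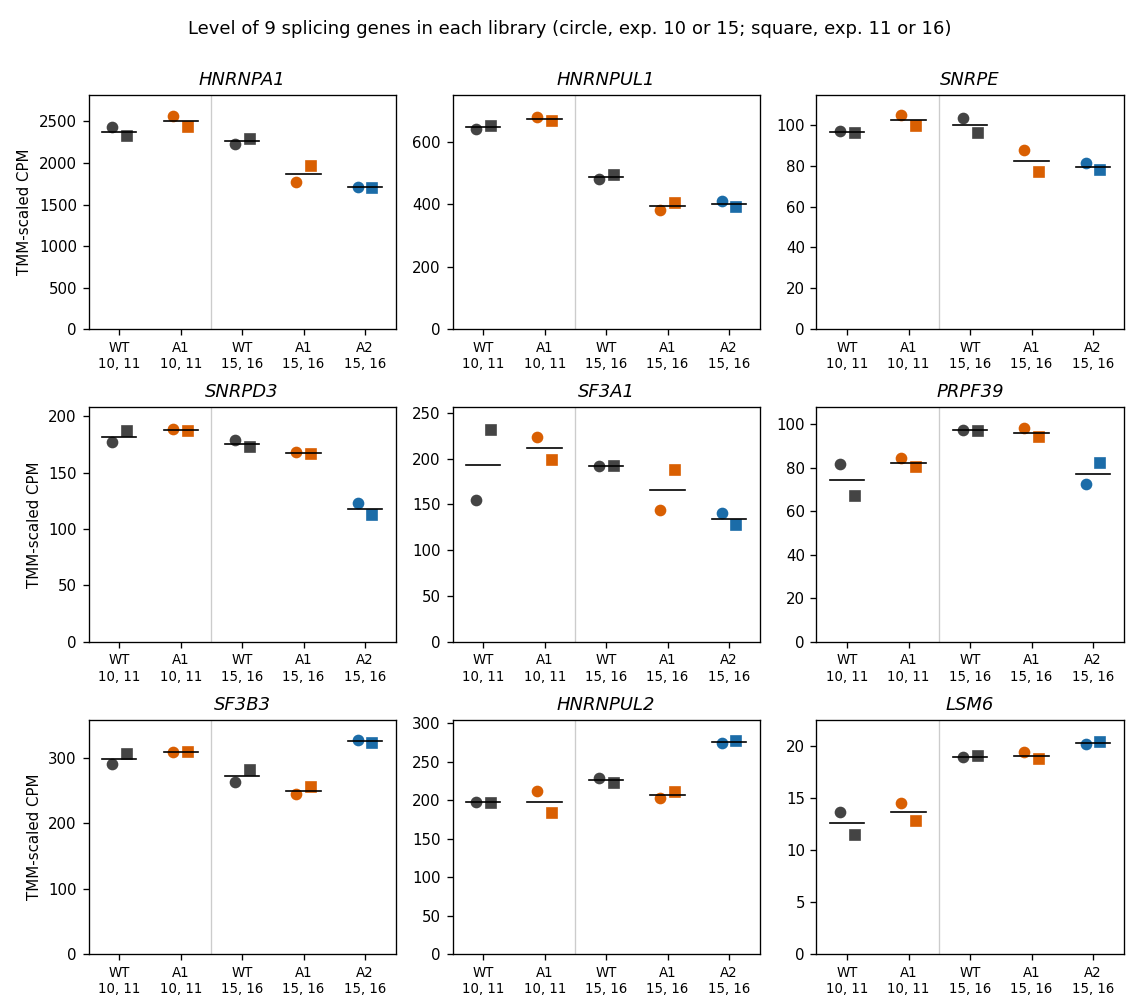
TMM-scaled CPM of 9 of the 75 genes in each library, with WT in grey, A1 in orange and A2 in blue; circles are experiments 10 or 15, squares 11 or 16, and lines the mean of each 2 libraries, with no error bar. SNRPD3 is low in A2 alone (123 and 113 CPM), HNRNPA1 and HNRNPUL1 are low in both clones of experiments 15 and 16, and LSM6 differs between the experiment pairs in WT (13.7 and 11.5 against 18.9 and 19.02 CPM).

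The clones were also compared with each other in experiments 15 and 16. Of the 75 genes 2 were higher in A2 than in A1 and 2 were lower, beside 2.00% and 4.16% of all genes, so the shares were near those of all genes. HNRNPUL2 was higher by 0.41 (SE 0.055, adjusted p = 1.8e-04) and SF3B3 by 0.38 (SE 0.057, adjusted p = 4.9e-04) on the log2 scale. SNRPD3 fell by 0.51 (SE 0.061, adjusted p = 7.2e-05) and PRPF39 by 0.32 (SE 0.068, adjusted p = 0.0094). The PRPF39 call was lost without A1 of experiment 15 (-0.28) or A2 of experiment 15 (-0.23). With the replicate block 6 were higher and 5 lower, beside 6.15% and 7.84% of all genes, and PRPF8, the core protein of the catalytic spliceosome, was among the 6 (log2 fold change 0.21, adjusted p = 0.0016).

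When the 4 KO libraries of experiments 15 and 16 were taken as 1 group against the 2 WT libraries, 7 genes were lower and 0 higher, beside 5.13% and 4.86% of all genes. They were HNRNPA1 (-0.34), SNRPE (-0.30), HNRNPUL1 (-0.30), SF3A2 (-0.29), PRPF31 (-0.28), SNRPA (-0.23) and HNRNPU (-0.19), with adjusted p-values from 0.0047 (HNRNPUL1) to 0.046 (SNRPA). DESeq2 called 9, beside 11.85% of all genes. Without WT of experiment 15 or 16 edgeR called 0 of the 75, beside 1.37% and 1.96% of all genes, with 6 and 16 of the 75 at an unadjusted p under 0.05. Without A2 of experiment 16 it called 4, beside 6.53% of all genes. All 4 KO libraries lay below both WT libraries for 25 of 75 genes (33.3%), where 17.4% of all genes did so, and above both for LSM8 and SRSF5 (2.67%), where 18.0% of all genes did so. Among the 25 were 9 HNRNP, 6 SNRP and 3 SRSF genes. The KO libraries come from 2 clones, and SAMHD1 itself did not pass in this grouping (log2 fold change -1.91, SE 0.66, adjusted p = 0.18), as the clones differed in its level.

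**Figure D4:**
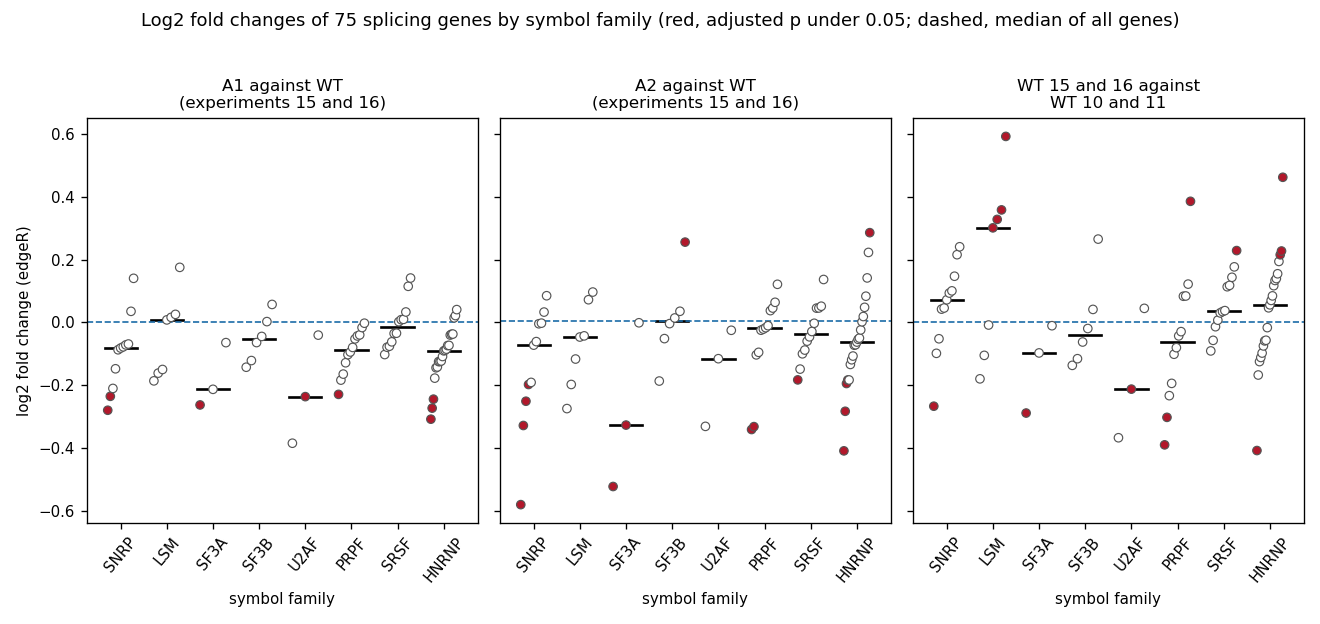
Log2 fold changes (edgeR) of the 75 genes by symbol family in 3 comparisons, with 1 point per gene, red where the adjusted p was under 0.05; black lines are family medians and the dashed line the median of all 13920 genes. Points lie mostly below the dashed line for A1 and A2 (58 and 53 of 75 below 0), and on both sides of it for WT of experiments 15 and 16 against 10 and 11.

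Most of the genes that were lower in A1, and a smaller part of those lower in A2, lie on chromosome 19. There 11 of the 75 genes are encoded, and all 11 had log2 fold changes below 0 in both clones. In A1 6 of the 8 lower genes are on chromosome 19 (HNRNPUL1, SF3A2, HNRNPM, U2AF2, SNRPD2 and PRPF31). In A2 4 of the 13 lower genes are on it. The share of all genes of chromosome 19 that passed was not counted, so these counts cannot be set beside it. The 970 listed genes of chromosome 19 had a median log2 fold change of -0.19 in A1, with 78.7% below 0, and of -0.16 in A2, with 77.3% below 0. The median of the 11 splicing genes was -0.23 in A1 and -0.25 in A2. On the other chromosomes the 64 splicing genes had a median of -0.07 in A1, with 2 lower, and of -0.02 in A2, with 9 lower and 2 higher. SNRPD3 and SF3A1 are on chromosome 22, where 96.5% of the 318 genes were below 0 in A2 and the median was -0.49.

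Each gene was therefore set beside the other genes of its 20 Mb region. Around SNRPD3 the median of 184 other genes was -0.46 in A2, and around SNRPE it was -0.20 in A1 and -0.21 in A2. HNRNPA1 lay apart from its region, with a median of -0.04 over 214 genes in A1 and in A2. The same was true of PRPF39 (-0.01 over 74 genes in A2), SF3B3 (0.02 over 130 genes) and HNRNPUL2 (0.04 over 273 genes). When the regional median was subtracted before a limma-trend test, 1 gene was lower in A1 (HNRNPA1, -0.24, adjusted p = 0.016) and 1 higher (LSM8, 0.33), compared with 9 lower without the subtraction. In A2 5 were lower and 3 higher, compared with 13 and 2. Calls over all genes fell with the same subtraction, from 13.1% to 8.42% in A1 and from 21.1% to 14.55% in A2. Chromosome 19 was also lower in WT of experiments 15 and 16 than in WT of 10 and 11 (median -0.19 over 970 genes) and in A1 of experiments 10 and 11 (-0.11). Copy number was not measured, and its part in these values was not tested.

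**Figure D5:**
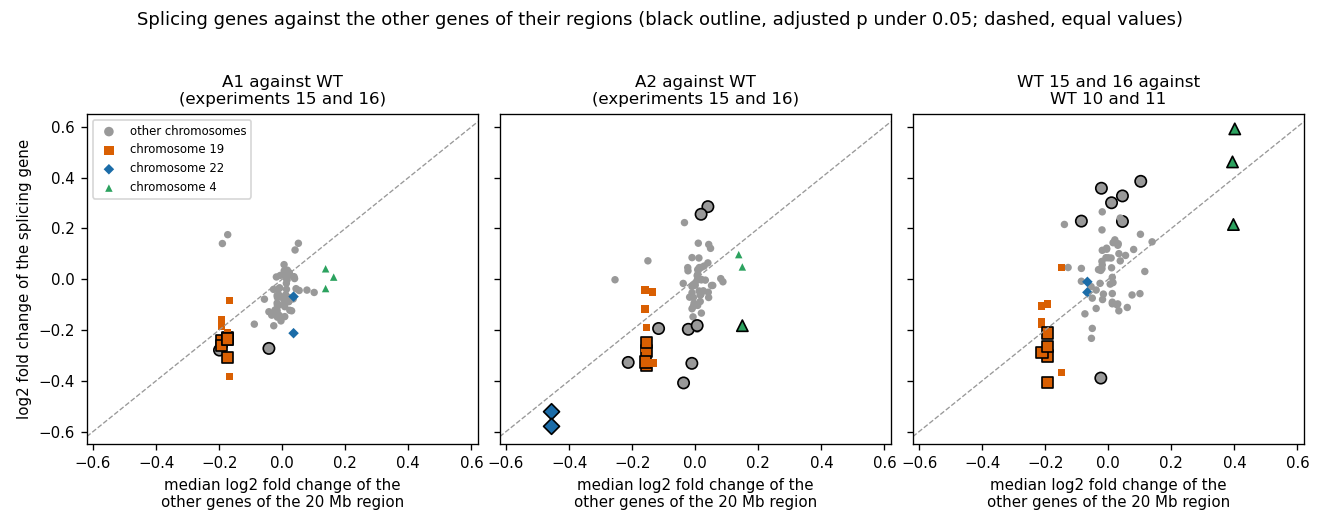
Log2 fold change of each of the 75 genes against the median log2 fold change of the other listed genes of its 20 Mb region, in 3 comparisons; orange squares are chromosome 19, blue diamonds chromosome 22, green triangles chromosome 4, and black outlines mark an adjusted p under 0.05. The 11 genes of chromosome 19 sit at regional medians below 0 in all 3 panels, and the 2 genes of chromosome 22 at -0.46 in A2.

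In experiments 10 and 11 no splicing gene differed between A1 and WT (0 higher and 0 lower in edgeR and DESeq2, 1 of 75 and 963 of all genes at an unadjusted p under 0.05). Among all genes 0% were higher and 0.0862% lower. The median log2 fold change of the 75 genes was 0.03, and values ranged from -0.21 (SF3B5) to 0.17 (SNRPB2). Of 21 HNRNP genes 2 were below 0. Without WT of experiment 10 the comparison called 14 of the 75 genes (18.7%) and 22.6% of all genes, and without WT of experiment 11 it called 1 of the 75 and 0.546% of all genes. Counts of 0 here do not show that A1 and WT were alike.

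The change of the A1 effect between the experiment pairs was tested as an interaction. In edgeR 0 of 75 genes passed, beside 1.26% higher and 0.654% lower among all genes. At an unadjusted p under 0.05 there were 5 of the 75 (6.67%), against 14.3% of all genes. The median difference was -0.10 and 63 of 75 were below 0. HNRNPUL1 had the largest value (-0.36, SE 0.091, adjusted p = 0.0502). With the replicate block 5 genes were lower and 0 higher, beside 3.43% and 4.33% of all genes. They were HNRNPUL1 (-0.37, adjusted p = 0.0013), HNRNPA1 (-0.34, adjusted p = 0.0019), SNRPE (-0.36, adjusted p = 0.0097), HNRNPU (-0.27, adjusted p = 0.011) and SNRPB2 (-0.31, adjusted p = 0.043). DESeq2 without the block called 2, beside 2.89% of all genes. In edgeR without the block the calls among the 75 and among all genes also changed when WT of experiment 10 or 11 was left out. The A1 libraries of the pairs also differed in SAMHD1, by -1.81 relative to WT (SE 0.13, adjusted p = 1.2e-06).

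WT spheroids themselves differed between experiments 15 and 16 and experiments 10 and 11. Of the 75 genes 9 were higher and 6 lower, beside 7.76% and 6.86% of all genes, and the median was 0.03. Of the 7 genes of the LSM ring on U6, 4 were higher, and the family median was 0.30. LSM6 was at 13.7 and 11.5 CPM in experiments 10 and 11 and at 18.9 and 19.02 CPM in experiments 15 and 16, a log2 fold change of 0.59 (SE 0.11, adjusted p = 0.0022). LSM3 (0.36, adjusted p = 0.0047), LSM5 (0.33, adjusted p = 0.015) and LSM8 (0.30, adjusted p = 0.016) also rose, whereas LSM2, LSM4 and LSM7 were between -0.18 and -0.0080 and did not pass. LSM6 and HNRNPD (0.46, adjusted p = 5.4e-04) are on chromosome 4, with regional medians of 0.40 and 0.39, but LSM3, LSM5 and LSM8 had regional medians of -0.02, 0.04 and 0.01.

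PRPF39 was higher as well (0.39, adjusted p = 0.0081), from 81.7 and 67.0 CPM to 97.4 and 96.8 CPM, and so were SRSF3, HNRNPA2B1 and HNRNPDL. HNRNPUL1 fell by 0.41 (SE 0.064, adjusted p = 8.4e-04), from 639 and 651 CPM. PRPF8 was at 761 and 848 CPM in experiments 10 and 11 and at 595.5 and 632 CPM in experiments 15 and 16 (-0.39, adjusted p = 0.0029), with a regional median of -0.02. The other lower genes, PRPF31 (-0.30), SF3A2 (-0.29), SNRPD2 (-0.27) and U2AF2 (-0.21), are on chromosome 19, where the median of all genes was -0.19. Of the 8 single libraries left out in turn, 7 ended the call of U2AF2 (-0.26 to -0.14), 5 that of SNRPD2 (-0.34 to -0.20), 3 that of PRPF31 (-0.32 to -0.17) and 1 that of SF3A2 (-0.20). Where 15 genes were called, leaving out WT of experiment 15, 16 or 11 gave 6, 4 and 9, and leaving out WT of experiment 10 gave 22. Calls over all genes moved with them, from 14.6% to 6.02%, 4.397%, 12.5% and 26.7%. The LSM5 and LSM8 calls were lost without WT of experiment 15 or of experiment 16 (0.28 to 0.35), that of LSM5 also without WT of experiment 11 (0.24), that of LSM3 without WT of experiment 16 (0.35) and that of PRPF39 without WT of experiment 15 or 16 (0.38 and 0.39). Those of LSM5 and LSM8 were also lost with the trend in GC content and length removed (0.14 and 0.21). Experiment and growth conditions cannot be told apart here.

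Another 157 listed genes of the splicing pathway outside these symbols were taken from 7 lists. In A1 of experiments 15 and 16 6 were higher and 12 lower, with a median of -0.04, and in A2 12 were higher and 21 lower, with a median of -0.02. In A1 these were 3.82% and 7.64% of the 157, and in A2 7.64% and 13.4%, near the 6.44% and 6.74% of all genes in A1 and the 9.75% and 11.4% in A2. Of 28 proteins of the U1, U5 and minor snRNPs, 2 were higher and 1 lower in A1 (LUC7L 0.22 and SNRNP70 -0.25), and 2 and 4 in A2 (SNRNP25 0.29 and SNU13 -0.61). Of 16 U2-associated proteins 1 was higher and 2 lower in A1 (DDX42 0.22 and DDX39A -0.41), and 1 and 3 in A2 (DDX42 0.18 and PHF5A -0.47). SNU13 and PHF5A are on chromosome 22, where the median of all genes was -0.49 in A2. SNRNP70 and DDX39A are on chromosome 19, where the median of all genes was -0.19 in A1. Of 32 proteins of the Prp19, B and C complexes 1 was higher and 2 lower in A1 (WBP4 0.33 and SDE2 -0.32), and 0 and 2 in A2 (SYF2 -0.24). Of 20 snRNP assembly proteins 0 were higher and 2 lower in A1, and 1 and 3 in A2. Among them SNUPN, the import adaptor of snRNPs, was the lowest in both (-0.40 and -0.43), at 25.7 and 24.0 CPM in WT, 18.9 and 18.75 CPM in A1 and 19.1 and 17.8 CPM in A2.

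Of 20 kinases of SR proteins and SR-like regulators 1 was higher and 0 lower in A1, and 2 and 2 in A2. SRPK2, a kinase that phosphorylates SR proteins, was higher in both (0.22 and 0.32), and RBM25 was lower in A2 (-0.24). Of 15 exon junction and nonsense-mediated decay proteins 0 were higher and 3 lower in A1, and 3 and 1 in A2 (SMG8 0.30 and SMG9 -0.27). SMG9 is on chromosome 19, where the median of all genes was -0.16 in A2, and so is NOVA2, which was higher. The largest values were among the 26 tissue-type regulators, of which 1 was higher and 2 lower in A1, and 3 and 6 in A2. Levels of ESRP2, a regulator of epithelial splicing, in WT were 13.0, 10.6, 6.755 and 5.91 CPM from experiment 10 to experiment 16. It was at 12.8, 13.4, 1.83 and 1.40 CPM in A1 and at 0.0673 and 0.312 CPM in A2. Its log2 fold change was -1.97 in A1 (SE 0.24, adjusted p = 9.3e-05) and -4.98 in A2 (SE 0.33, adjusted p = 2.3e-07) in experiments 15 and 16, and the interaction of A1 with the experiment pair was -2.12 (SE 0.22, adjusted p = 7.0e-05). NOVA2, a regulator known from neurons, was at 13.1 and 13.6 CPM in WT, 28.7 and 32.3 CPM in A1 and 21.0 and 19.9 CPM in A2 of experiments 15 and 16, with log2 fold changes of 1.19 and 0.61. In experiments 10 and 11 NOVA2 was at 6.83 and 6.14 CPM in WT and at 5.74 and 6.07 CPM in A1, so both A1 libraries were slightly below both WT libraries. WT itself was higher in experiments 15 and 16 by 1.04 on the log2 scale (NOVA2, adjusted p = 3.0e-05), and the interaction of A1 with the experiment pair was 1.33 (adjusted p = 2.2e-04). The A2 libraries held few ESRP2 reads, so its fold change in A2 is imprecise. ESRP2 in both clones and NOVA2 in A1 changed by more than any of the 75 genes in the same comparisons. In A2 NOVA2 (0.61, SE 0.088) and SNRPD3 (-0.58, SE 0.061) did not differ in size beyond their errors.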

How the data were processed

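RNA was sequenced from WT, A1 and A2 spheroids. Stranded mRNA libraries were made, and HISAT2 was used for alignment (GRCh38, NCBI annotation). The authors dropped every gene at 0 in any library. The table they deposited holds unnormalized counts for each NCBI gene identifier. The counting program, the strand setting and the role of StringTie, which the submitters' processing notes also name, are not given in the sources used here, so overlapping and antisense genes cannot be separated. Of 13920 genes 13885 matched a symbol and position in the RefSeq table. The main test was the robust quasi-likelihood test of edgeR 4.0.16 after TMM scaling (R 4.3.3). DESeq2 1.42.0 and limma 3.58.1 served as alternatives, with all genes fitted together, Benjamini-Hochberg adjustment and a threshold of 0.05. The SE of an edgeR fold change was its size divided by the square root of F. Log2 CPM used a prior count of 2. Depth was 40077369 to 51311482 counts per library, and the study describes the libraries as biological duplicates of each line, so p-values measure the spread between duplicates and not between further clones.

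The rule named, in each comparison and direction, up to 6 genes that passed with the largest change, the highest and lowest level per kb of each family, the 3 lowest mean counts, SAMHD1 and the most changed gene of each other list and direction. Other genes were named with their values seen. The members and lists were chosen with earlier results of these data known. Alternatives were RLE normalization, count filters (mean count of at least 10), 5 groups over 10 libraries, regional medians (20 Mb, at least 20 genes), GC and length trends (lowess span 0.3), the experiment number as a replicate block and each library left out. In simulated data with 200 changed genes of 13920, edgeR found 193 with 8 false calls in the design of experiments 15 and 16. These counts hold for the changes planted there. Changes as small as most of those of the splicing genes were not simulated separately, so the power for them was not tested.

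Labels give groups the same experiment numbers. After group means were removed, same-experiment WT and A1 libraries had correlations of 0.468, 0.474, 0.526 and 0.524. WT and A1 libraries of the other experiment in the same pair had 0.399, 0.436, 0.438 and 0.461, and with the pair mean also removed the same-experiment values were 0.0844 and 0.134, so most of the correlation lay in the experiment pair. A2 libraries had correlations of 0.0208 and 0.159 with WT and of 0.00803 and 0.0909 with A1. A2 is in the later pair only, so these are not comparable with the values between WT and A1. With the pair mean also removed the same-experiment values of A2 were 0.151 with WT and 0.103 with A1. The number was taken as pairing from the labels. PRPF4B is listed as PRP4K and was outside the symbol rule, and U2AF1 and HNRNPA1 have near-identical copies, so reads could be split between them. Some results are not reported here.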

Additional observations from a re-analysis of the deposited data

Results flagged for a closer look

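Libraries of WT and of A1 (4 each) were examined for 1 library far from the other 3, for 28 named genes and for the summed level of the 75 genes, which gave 58 groups. In 1 of them the gap was beyond Dixon's 95% critical value, and chance alone gives about 1 in 20. SNRPE was at 103.3 CPM in WT of experiment 15 and at 96.1 to 96.9 CPM in the other 3 WT libraries. Without this library the SNRPE call against WT in experiments 15 and 16 was lost for A1 (-0.22) and for the joined KO libraries (-0.25), and held for A2 (-0.27).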

How the results depend on the processing

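With the regional median removed (limma-trend), the number of the 75 genes that passed was 2 for A1 against WT, 8 for A2 against WT and 3 for KO against WT in experiments 15 and 16, and 8 for WT between the experiment pairs, beside 8.42%, 14.55%, 6.28% and 11.04% of all genes. With GC and length trends removed it was 21 for A1, 8 for A2 against A1 and 4 for the change of the A1 effect, where 3057, 1736 and 947 of all 13920 genes passed (21.96%, 12.5% and 6.80%). With the replicate block it was 21 for A1, 26 for A2, 11 for A2 against A1 and 5 for the change of the A1 effect. Of all genes 23.25%, 32.41%, 13.99% and 7.77% passed there. With 5 groups over 10 libraries 4 passed for A1 (5.33%), beside 8.24% of all genes. The change of the A1 effect gave 2 in DESeq2, beside 2.89% of all genes. It gave 1 each with RLE normalization, a mean count of at least 10, the filter by expression and 5 groups. Of all genes 1.98% to 2.50% passed in these settings. With each library left out in turn the counts were 1 to 9 for A1, 8 to 18 for A2, 0 to 9 for KO, 0 to 14 for A1 in experiments 10 and 11, 0 to 5 for the change of the A1 effect and 4 to 22 for WT between pairs. The median log2 fold change in A1 was -0.069 with the regional median removed, -0.086 with GC and length trends removed and -0.082 to -0.069 with a library left out. For WT between pairs it was 0.028 in DESeq2, with RLE normalization, with a mean count of at least 10 and with the filter by expression, 0.044 with the regional median removed, -0.024 with GC and length trends removed and 0.0079 to 0.035 with a library left out. The cause of these differences was not tested, and the last setting also has fewer libraries. With a library left out, calls over all genes moved as well. In each comparison given with such a range, the fit with the fewest calls over all genes also had the fewest among the 75. The same held for the most calls, except for KO. Whether the calls of the 75 genes were less stable than those of other genes was not tested.

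Over 36 named genes and comparisons, no alternative turned a direction. DESeq2, RLE normalization, limma-trend and the count filters kept all 36 calls, the replicate block kept 23 of 24 (it ended SF3A1 in A2), 5 groups over 10 libraries ended 4 calls, removal of GC and length trends kept 34 of 36, removal of the regional median kept 15 of 36, and leaving out a library kept 185 of 240. No paired analysis was possible for WT between pairs because each experiment belongs to 1 pair. Only 2 libraries per group in a pair limit the precision, and a lone library left by leaving one out is assumed to vary like the others.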

Other observations

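Reads of near-identical copies can be split by the counting. U2AF1 was between 46.98 and 53.2 CPM and its copy LOC102724594 between 48.4 and 54.9 CPM over the 10 libraries, and neither passed in A1 or A2 against WT. HNRNPA1L2, a near copy of HNRNPA1, lay between 28.4 and 39.2 CPM, against 1699 to 2566 CPM for HNRNPA1. PRP4K, the kinase formerly called PRPF4B, had log2 fold changes of -0.12 in A1 (adjusted p = 0.26) and -0.16 in A2 (adjusted p = 0.086) against WT in experiments 15 and 16.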
